A study of Mus musculus with 16 samples.

Results

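Dense arrays of fasting-enriched regions, together with regions on contigs that are not part of an assembled chromosome, made up 761 of the 8404 regions that carried more histone H3 lysine 9 beta-hydroxybutyrylation in fasted than in fed mouse cortex (9.06%). A region was included when it lay on a contig other than chromosomes 1 to 19, X and Y, or in a run of at least 5 regions on 1 chromosome with gaps of at most 20 kb. By this rule 578 regions lay in 47 arrays on assembled chromosomes and 183 lay on contigs, where 4 further arrays formed. Members were chosen by the positions of regions that had already been called from the fasted against fed comparison, so their number, density and log likelihood ratios are descriptions and carry no test.

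The mice were C57BL/6J, 35 days old, and had been fasted for 48 h or fed ad libitum before the occipital cortex was taken. For each state the labels name 4 libraries of immunoprecipitated chromatin and 4 of input, 16 together, without saying whether a library is 1 mouse or a pool. They name no allele, sex or agent, and the tissue is a homogenate that mixes neurons, glia and vascular cells. The authors deposited 1 list of regions for each direction, with a log likelihood ratio (log-LR) per region. It measures how strongly the data favoured a difference between the states and does not give the size of that difference. No value per library was used here, so depth and the spread between mice are unknown. With no expression values and no list of regions marked alike in both states, the tissue label could not be checked against cortex markers.

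Beta-hydroxybutyrylation attaches the acyl group of the ketone body beta-hydroxybutyrate to lysines of histones, and ketone bodies rise in blood during fasting. Assembled mouse chromosomes hold families of near-identical sequence, among them satellite DNA beside centromeres, tandem genes for small RNAs and clusters of recently duplicated protein-coding genes. A short read from such a copy can match several places in the genome, and contigs are often pieces of these families that could not be placed. The handling of such reads is not given in the sources used here, so a gain at one copy cannot be told apart from a gain at another.

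The sequences show how alike the copies inside the arrays can be. They are RefSeq promoter windows of build GRCm38.p6, the build called mm10, from 250 bases before to 50 bases after an annotated gene start, printed 5′ to 3′, with capitals for bases inside a fasting-enriched region. The first pair comes from the array that holds Rn4.5s, the gene of a small rodent RNA repeated in tandem, and was chosen because both windows have the same letters but not the same deposited extent. Gm40369 lies at chr6:47653742-47654041 and Gm40367 at chr6:47662342-47662641, both on the plus strand.
Gm40369: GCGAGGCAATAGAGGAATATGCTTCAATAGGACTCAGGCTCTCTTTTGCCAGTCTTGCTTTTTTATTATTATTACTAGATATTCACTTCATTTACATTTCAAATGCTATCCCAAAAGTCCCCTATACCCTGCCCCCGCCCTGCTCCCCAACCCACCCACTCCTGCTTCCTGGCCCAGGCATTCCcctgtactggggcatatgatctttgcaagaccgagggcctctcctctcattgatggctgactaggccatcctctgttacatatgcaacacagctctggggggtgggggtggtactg
Gm40367: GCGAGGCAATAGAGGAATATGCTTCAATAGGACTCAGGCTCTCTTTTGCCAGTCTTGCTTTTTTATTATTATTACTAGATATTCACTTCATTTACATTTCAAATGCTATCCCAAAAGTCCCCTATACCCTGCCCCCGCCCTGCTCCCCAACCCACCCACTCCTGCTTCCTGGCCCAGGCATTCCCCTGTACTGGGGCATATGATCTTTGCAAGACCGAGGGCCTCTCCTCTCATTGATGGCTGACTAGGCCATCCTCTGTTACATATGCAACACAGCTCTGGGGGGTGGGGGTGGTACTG
Windows at Gm36327 and Gm40364 carry the same 300 bases, so all 6 pairs among these 4 were 100% identical. The region covered 184 of the 300 bases at Gm40369, with a log-LR of 10.4, and all 300 at the other three. There the log-LR was 10.4 at Gm40367, 8.71 at Gm36327 and 5.03 at Gm40364. Identical letters therefore stood under regions whose log-LR ranged from 5.03 to 10.4. Each value belongs to a whole region and not to the window alone. These regions were 406, 681, 1099 and 540 bp wide in order of position, so they took in different flanking bases. In the neighbouring array, the window at Gm52861 was 98.7% identical to that at Gm40367 after alignment, and its region had a log-LR of 5.04.

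The next 4 windows come from an array over Ifnz, an interferon zeta gene, and its neighbours, and show 2 forms of 1 repeated start. They lie on the plus strand at chr4:88776512-88776811 (Gm13289), chr4:88796987-88797286 (Gm13279), chr4:88779600-88779899 (Gm13272) and chr4:88803004-88803303 (Gm13287).
Gm13289: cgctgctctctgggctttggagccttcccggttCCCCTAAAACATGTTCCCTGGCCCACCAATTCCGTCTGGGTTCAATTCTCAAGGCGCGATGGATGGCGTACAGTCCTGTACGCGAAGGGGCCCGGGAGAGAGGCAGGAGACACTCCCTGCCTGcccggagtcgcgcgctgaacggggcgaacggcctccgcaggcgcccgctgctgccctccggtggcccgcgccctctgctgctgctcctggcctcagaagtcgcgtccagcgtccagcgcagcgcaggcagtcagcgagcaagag
Gm13279: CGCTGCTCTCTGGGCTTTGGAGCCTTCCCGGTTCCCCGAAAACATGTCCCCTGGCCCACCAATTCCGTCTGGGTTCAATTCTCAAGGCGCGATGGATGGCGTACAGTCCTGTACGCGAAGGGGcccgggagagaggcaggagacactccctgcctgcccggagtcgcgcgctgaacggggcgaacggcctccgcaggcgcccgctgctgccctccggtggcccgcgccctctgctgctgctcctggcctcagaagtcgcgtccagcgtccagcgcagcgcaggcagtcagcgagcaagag
Gm13272: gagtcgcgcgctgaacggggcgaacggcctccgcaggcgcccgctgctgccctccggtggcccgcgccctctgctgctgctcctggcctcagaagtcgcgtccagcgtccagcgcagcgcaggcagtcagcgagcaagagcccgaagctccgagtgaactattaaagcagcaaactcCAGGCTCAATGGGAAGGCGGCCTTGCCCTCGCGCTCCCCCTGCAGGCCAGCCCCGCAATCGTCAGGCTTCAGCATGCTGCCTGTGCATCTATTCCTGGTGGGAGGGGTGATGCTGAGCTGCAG
Gm13287: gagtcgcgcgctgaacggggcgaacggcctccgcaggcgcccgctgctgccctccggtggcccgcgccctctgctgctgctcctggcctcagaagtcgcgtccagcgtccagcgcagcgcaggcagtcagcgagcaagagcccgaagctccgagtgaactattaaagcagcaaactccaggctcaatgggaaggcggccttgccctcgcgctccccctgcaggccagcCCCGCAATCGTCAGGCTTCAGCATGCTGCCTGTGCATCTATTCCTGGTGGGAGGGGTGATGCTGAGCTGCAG
Gm13289 and Gm13279 differed at 2 of 300 bases, T38G and T48C, counted from 1 at the 5′ end with the Gm13289 base first. Gm13272 and Gm13287 were 100% identical. The forms are the same sequence read from different annotated starts, since the last 140 bases of the Gm13289 window equal the first 140 of the Gm13272 window. The capitals cover bases 34 to 156 at Gm13289 and 1 to 123 at Gm13279, and bases 178 to 300 at Gm13272 and 229 to 300 at Gm13287. In the same order the log-LR was 3.81, 4.93, 4.16 and 3.91. Within each near-identical pair the regions thus covered overlapping parts of the copy but did not share their edges. The 140 bases common to both forms carry no capitals.

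Core histone genes, whose proteins package DNA, also share sequence between copies. H2ac23 lies at chr13:21810117-21810416 on the plus strand and H2ac24 at chr13:21833426-21833725 on the minus strand.
H2ac23: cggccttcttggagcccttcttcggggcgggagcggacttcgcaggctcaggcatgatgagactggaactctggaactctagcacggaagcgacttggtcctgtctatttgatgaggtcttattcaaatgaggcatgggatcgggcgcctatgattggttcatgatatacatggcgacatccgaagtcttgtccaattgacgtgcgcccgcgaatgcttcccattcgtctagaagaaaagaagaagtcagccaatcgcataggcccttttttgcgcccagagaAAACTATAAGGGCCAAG
H2ac24: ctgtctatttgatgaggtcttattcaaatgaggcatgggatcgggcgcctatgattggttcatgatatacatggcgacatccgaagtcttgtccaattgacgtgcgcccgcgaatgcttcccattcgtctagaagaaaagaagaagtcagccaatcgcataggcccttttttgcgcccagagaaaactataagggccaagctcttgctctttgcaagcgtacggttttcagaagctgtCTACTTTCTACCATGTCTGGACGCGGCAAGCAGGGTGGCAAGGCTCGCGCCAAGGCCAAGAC
The last 200 bases of the first window equal the first 200 of the second. The region at H2ac23 (log-LR 7.74) also reached into the window of the divergent gene H2bc23, and that at H2ac24 had a log-LR of 7.18.

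Zbtb7a, which encodes a zinc finger repressor, stands for windows that shared no run of 50 bases with another window, and its window lies at chr10:81136021-81136320 on the plus strand, where 296 bases were covered.
Zbtb7a: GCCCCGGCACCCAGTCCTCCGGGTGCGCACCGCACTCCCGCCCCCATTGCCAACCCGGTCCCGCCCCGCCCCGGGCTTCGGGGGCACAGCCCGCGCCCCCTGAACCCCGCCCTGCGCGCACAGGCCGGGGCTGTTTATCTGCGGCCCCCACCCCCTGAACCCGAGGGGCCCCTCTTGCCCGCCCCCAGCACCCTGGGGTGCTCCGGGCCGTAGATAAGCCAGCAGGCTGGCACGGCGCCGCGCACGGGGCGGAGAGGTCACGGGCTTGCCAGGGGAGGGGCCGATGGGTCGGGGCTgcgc
This window has 31 CpG dinucleotides and the Rn4.5s windows printed above have 3 each, so the arrays join CpG-rich and CpG-poor starts.

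Shared sequence was common among the few promoter windows under array regions. Of the 19 promoter windows that an array region overlapped, 14 (73.7%) shared a run of 50 bases with a window elsewhere in the genome, on either strand. The share was 3.32% of the 782 windows under regions outside arrays and 7.88% of all 32851 windows. Most of the sharing windows under array regions came from the Rn4.5s, Ifnz and histone arrays, whose copies match each other. A few places are therefore counted several times, and the share does not describe arrays in general. The 5 windows without such a run were those of Cirbp, Zbtb7a, Gm13165, Gm51571 and Gm33272. Promoter windows were rarely involved, with 19 of 566 array regions overlapping any (3.36%), against 672 of 7397 regions outside arrays (9.08%), both without chromosome 18. The median number of CpG dinucleotides was 17 in windows under array regions, with a range of 2 to 39, 29 in windows under the other regions and 7 over all windows.

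Regions in arrays and on contigs had a greater median width and a higher median log-LR than the rest of the list, as a description. Their median log-LR was 6.80, with quartiles of 4.93 and 11.7 and a range of 3.24 to 1498, against 4.86 for the 7643 regions outside, whose quartiles were 4.12 and 6.06. Median width was 265 bp against 201 bp, and the members covered 262.9 kb, or 12.8% of all bases in the list. Their share grew unevenly with log-LR. It was 4.65% of the 4302 regions under 5, 9.28% between 5 and 10, 38.2% between 10 and 20, 29.7% between 20 and 50, only 1 of 18 between 50 and 100, and 85.8% of the 106 regions at or above 100. The low share between 50 and 100 separates a large group of modest values from a small group of very high ones.

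**Figure D1:**
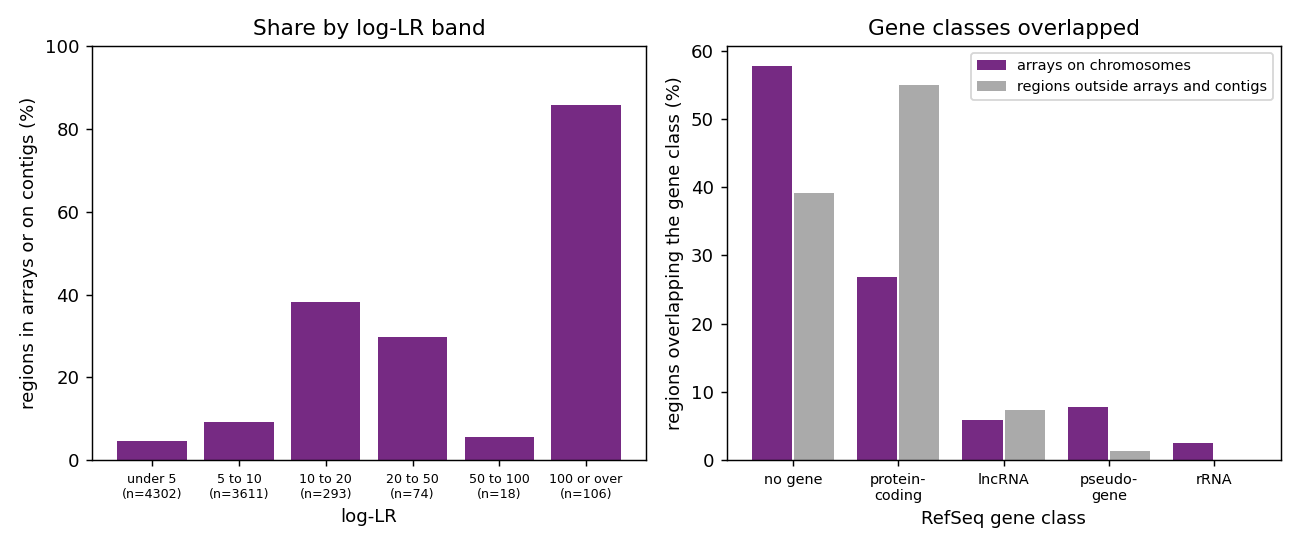
Left, percentage of the regions in each log-LR band that lay in arrays or on contigs, with the number of regions in the band. Right, percentage of regions overlapping each RefSeq gene class, for array regions on chromosomes and regions outside. The share reached 85.8% at a log-LR of 100 or over, and 57.8% of array regions overlapped no gene.

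The very high values came from few places. Of the 91 members with a log-LR over 100, 46 lay on 1 unplaced contig, 36 in an array at the start of chromosome 9, 6 in an array on chromosome 14, 2 on other contigs and 1 on X. Most arrays were unlike these. Of the 47 on chromosomes, 27 had a median log-LR under 6.28, the upper quartile of the whole list, 5 had a median of 10 or more and 2 a median over 100. In 41 of the 47 no region reached a log-LR of 20.

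**Figure D2:**
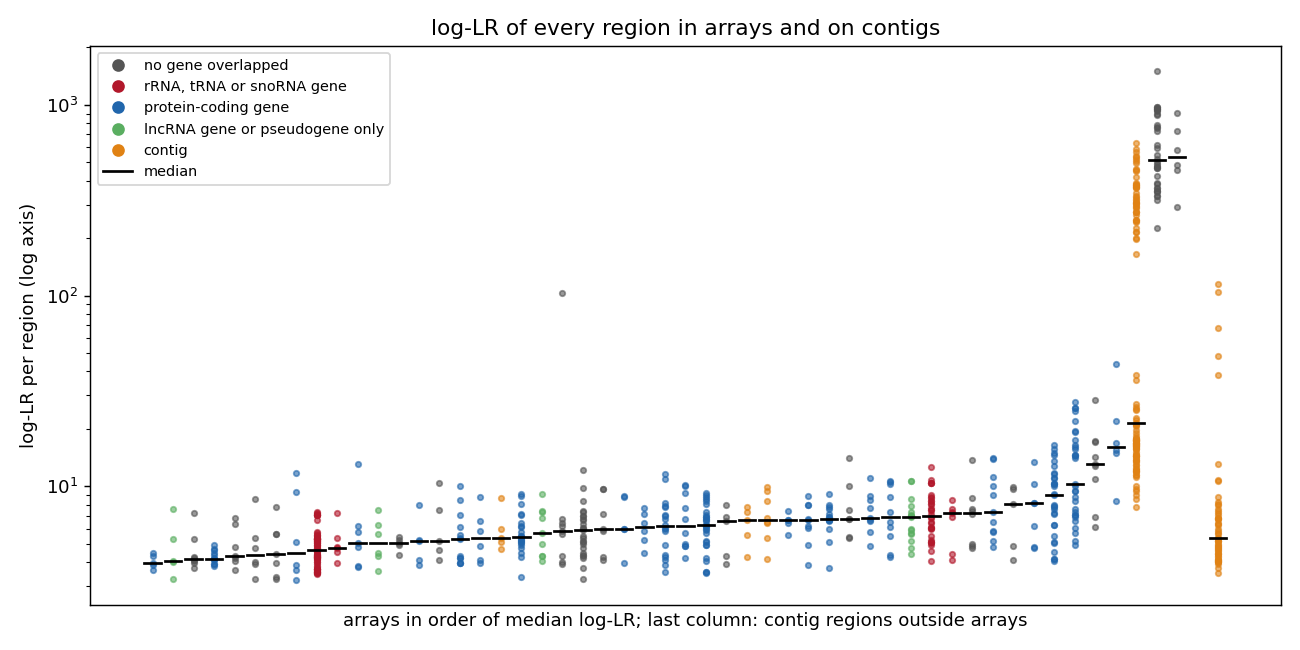
log-LR of each region (points, log axis) in each of the 51 arrays, ordered by their median (black bars) and coloured by the genes overlapped, with contig regions outside arrays in the last column. The chromosome 9 and chromosome 14 arrays and part of 1 contig array stand above 100. So do 1 region of an X array and 2 contig regions outside arrays. Most array medians lie between 3.97 and 10.

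At the limits of the rule the values ran on without a break. The 9 runs of exactly 5 regions on chromosomes had a median log-LR of 5.20 and a range of 3.28 to 10.5, and the 36 runs of 4 regions, just outside, a median of 4.99 and a range of 3.33 to 11.8. The widest gap inside an array was 19988 bp and the narrowest gap beside an array was 20911 bp. A run of 3 regions on chromosome 2, from 98662592 to 98667256, was outside the rule with a log-LR of up to 1371, and a lone region on chromosome 9, at 35305283 to 35305539 inside Gm33838, had 623.8. Very high values were therefore not confined to arrays and contigs.

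The chromosome 9 array, which overlapped no annotated gene, held the 8 highest members. Its 36 regions lay between bases 3000223 and 3038248, 421 bp from the microRNA gene Mir101c at the nearest point, and covered 37.0% of that span. Mouse autosomes and X are telocentric, and the assembly begins each with a placeholder for the unsequenced centromere, so this is the first sequence present. The log-LR ranged from 226.8 to 1498, and the median of 512.2 lay between quartiles of 379.1 and 884.4. The highest value belonged to the first region, at 3000223 to 3000687, and the next highest, 975.4, to a region at 3014005 to 3014381. Values varied along the array with no steady trend, as the plot of the array against distance shows.

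The chromosome 14 array was shorter and as high. Its 6 regions, from 19415771 to 19419422, had log-LR values of 485.1, 290.1, 732.5, 581.8, 909.5 and 452.8 in order of position. They covered 65.2% of 3.65 kb, and the nearest gene, Gm9637, was 10.7 kb away. Every region of this array was above the lowest value of the chromosome 9 array.

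The unplaced contig with most regions carried 110 of them and fell into 2 blocks. The widest gap between its regions, 5.25 kb, came after 64 regions and exceeded the next widest gap of 1.66 kb. The 64 regions before it, from base 669 to base 63295, had a median log-LR of 16.1 and a range of 7.80 to 38.3. The 46 after it, from base 68546 to base 114250, had a median of 324.9 and a range of 165.9 to 632.4. The values of the blocks did not overlap. Their density was alike, with 52.3% of the first span and 54.4% of the second covered, so the blocks differed in log-LR and not in how much was called. The split was noticed in the data and was not tested.

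**Figure D3:**
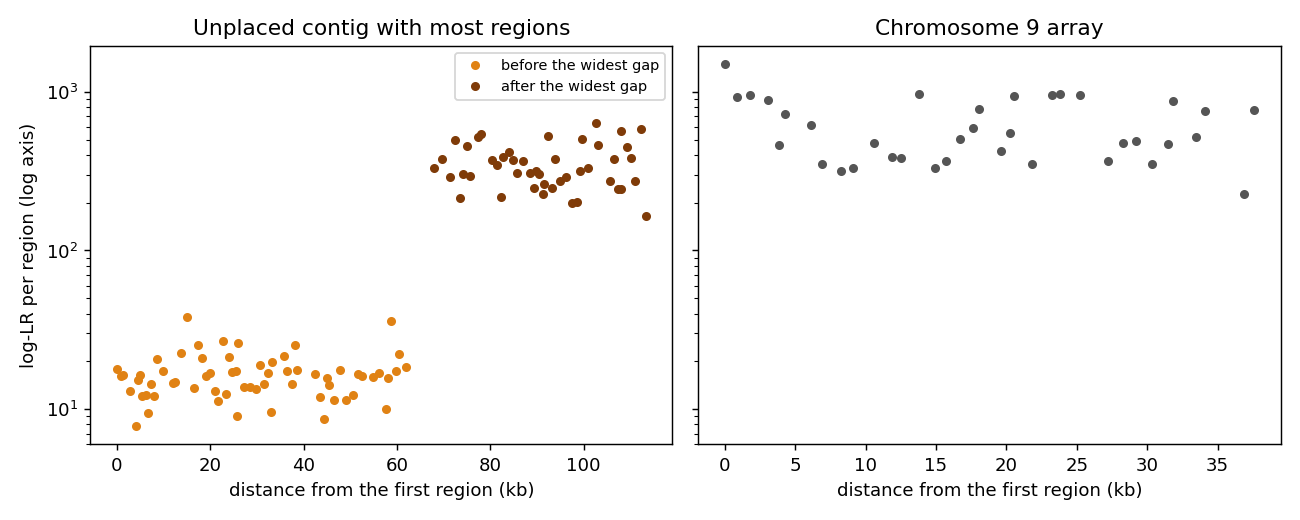
log-LR (log axis) of each region against its distance from the first region in kb, for the unplaced contig with most regions (left) and the chromosome 9 array (right). On the contig the values step from a median of 16.1 to one of 324.9 across the widest gap.

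The other 19 contigs held 73 regions with lower values. Their median log-LR was 5.66, and 8 of the 73 reached 10. Most came from contigs assigned to chromosome 1, where 4 contigs held 44 regions with a median of 5.60 and a range of 3.53 to 13.1. An unplaced contig with 3 regions had log-LR values from 67.6 to 115.3, and a contig assigned to Y had a single region at 48.1. In all, 9 contigs held 1 region each. Genes on contigs were not analysed here.

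Among arrays on chromosomes, the one with most regions covered the 5S ribosomal RNA genes, whose product is the smallest RNA of the large ribosomal subunit and is made by RNA polymerase III from a tandem cluster. Its 64 regions lay on chromosome 8 from 123538455 to 123624160, beside 51 gene models of 5S length, 48 annotated as ribosomal RNA and 3 as pseudogenes. Gene models were evenly spaced, 1698 bp apart at the median and 1665 to 1727 bp at the extremes. The log-LR stayed low, at a median of 4.64 and a range of 3.47 to 7.37. The regions did not sit on the transcribed unit in particular. They overlapped 13 of the 51 models, led by n-R5s133 (log-LR 7.13) and n-R5s123 (7.09), and covered 17.5% of gene bases and 22.3% of spacer bases.

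Position within the repeat was uneven. Measured from the lower coordinate of the gene model before it, since strand was not in the gene table, the centre of a region lay 827 bp into the unit at the median, with quartiles of 474.5 and 1480 bp. Over 6 bins of equal width from 0 to 1748 bp, a range slightly longer than any unit, 18 of 63 centres fell in the last, next to the following gene, 16 in the second, 3 in the fifth and 7 in the first, which holds the gene. The second and last bins therefore held more centres than the first, and the bin between 1165 and 1457 bp held the fewest. The first bin is not the gene alone, since the gene models are 121 bp long at the median and spacer fills the rest.

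**Figure D4:**
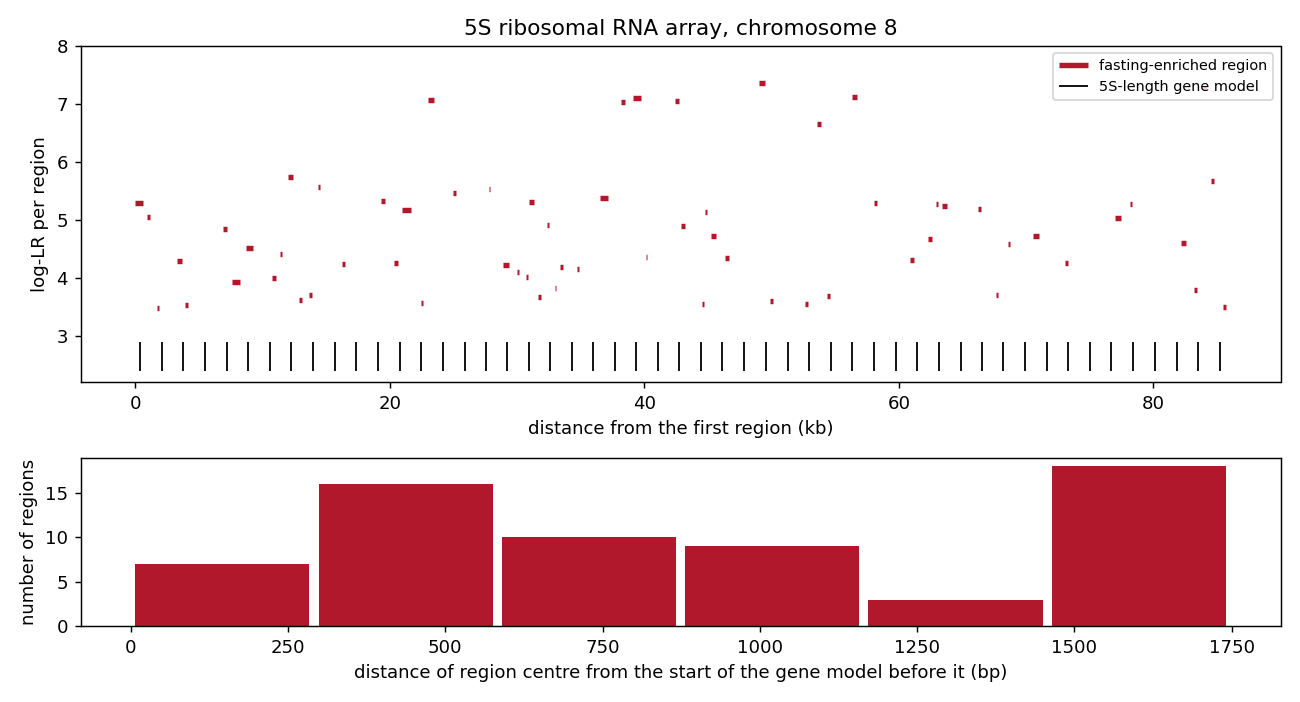
Top, fasting-enriched regions (red, height is log-LR) and 5S-length gene models (black ticks) by distance from the first region in kb. Bottom, number of regions by the distance of their centre from the start of the gene model before it, in bp. Regions spread along the whole cluster at 3.47 to 7.37 and were fewest between 1165 and 1457 bp.

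The pair of arrays at Rn4.5s on chromosome 6 held 63 regions with higher values. The first, from 47651680 to 47686619, had 32 regions that covered 48.4% of the span, and their median log-LR was 6.998. The second, from 47738215 to 47778251, had 31 with a median of 8.95, the highest at 16.5. The 51.6 kb between them held no array region, and the gene model Gm40363 spans it. Regions outside the rule were not looked for there. Rn4.5s itself, a gene of 0.174 kb listed as ribosomal RNA, was overlapped by a region with a log-LR of 7.12. The identical starts printed above were 8.60, 12.99 and 4.33 kb apart in order of position, close to whole multiples of the shortest spacing. The lncRNA gene Gm52861 in the second array was overlapped by 9 regions with log-LR from 4.16 to 14.6.

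**Figure D5:**
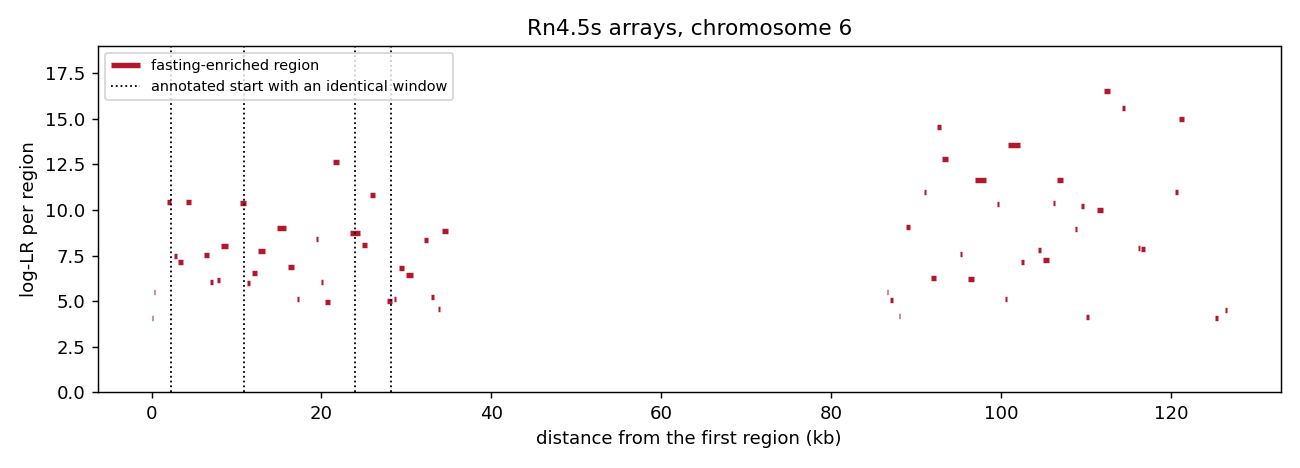
Fasting-enriched regions (red, height is log-LR) in both arrays at Rn4.5s by distance from the first region in kb, with dotted lines at the 4 annotated starts whose windows are identical. The arrays are 51.6 kb apart, and the second reaches 16.5.

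Other small RNA genes appeared in 2 short arrays. Snhg14, the long host transcript of small nucleolar RNAs that runs opposite the imprinted gene Ube3a, contained an array of 7 regions on chromosome 7 from 59728775 to 59771687, with a median log-LR of 7.24. Of these, 3 overlapped a snoRNA gene model of 0.094 kb, namely LOC115486763 (7.63), Gm22046 (7.35) and Gm25350 (4.44). The span touches 18 gene models, of which 4 were overlapped, Snhg14 and these 3. On chromosome 1, 6 regions from 171063843 to 171079175 lay at Fcgr3, an immunoglobulin G receptor gene, and a group of transfer RNA genes. A region there with a log-LR of 5.37 overlapped the leucine tRNA gene n-TLcag6. Of 12 gene models within that span, only n-TLcag6 and Fcgr3 were overlapped.

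Protein-coding genes, and no small RNA gene, were overlapped in 23 arrays with 278 regions at a median log-LR of 6.59, a count that includes the second Rn4.5s array. Sfi1, which encodes a centrin-binding protein of the centrosome, led by number. An array of 31 regions on chromosome 11, from 3122849 to 3199267, placed 27 in Sfi1 at a median log-LR of 10.3 and a range of 4.90 to 27.6. The same array reached the pseudogenes Fau-ps2 (19.2) and Pisd-ps1 (3 regions, up to 14.5). Tmem267 on chromosome 13 held 6 regions within 5.74 kb, from 119596467 to 119602206, with a median log-LR of 16.2 and 43.6 at the highest. Duxf3, of the double homeobox family active in the early embryo, held 3 of the 11 regions of an array on chromosome 10 (58220884 to 58237657), with log-LR of 10.04, 13.9 and 14.1, and the neighbouring gene LOC100504180 held 4 from 4.82 to 8.99.

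Zinc finger genes, many of which encode repressors of transposable elements, and vomeronasal receptor pseudogenes lay in the longest neighbourhood. On chromosome 4, 7 arrays with 58 regions lay between 145750349 and 147422465, with log-LR of 5.90 at the median and 11.7 at most. A numbered Zfp gene was overlapped by 27 of the 58, in 4 of the 7 arrays, and a vomeronasal pseudogene by 24, with 5 regions in both. Zfp978, an annotated gene of 267.1 kb, held 22 regions from 3.94 to 11.1. Zfp600 held 2, of which the higher, 11.7, was also within the vomeronasal receptor pseudogene Vmn2r-ps17 and the lncRNA Gm13165. Zfp991 reached 10.1, Zfp992 8.91, and Zfp981 and Zfp993 shared a region at 4.95. On chromosome 17 an array of 5 regions over Zfp52, Zfp53 and Zfp948 had the lowest median of all arrays, 3.97, with a range of 3.66 to 4.48. In all, 9 of 416 genes named Zfp with a number were overlapped in arrays and 68 by regions outside them, where the shares over all 49980 genes of the table were 0.216% and 8.35%.

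The Ifnz array held 12 regions on chromosome 4 from 88776545 to 88803499, between 3.81 and 4.93. Ifnz (4.62), Gm13277 (4.68), Gm13278 (4.46) and Gm13276 (4.14) have annotated lengths of 1.462 kb each and carried 1 region each. Type I interferons such as that of Ifnz act in antiviral defence, and the log-LR of this array stayed within a narrow range near the lower end of the list. The histone array on chromosome 13, 6 regions from 21810400 to 21833487, also overlapped H4c18 (5.24). On chromosome 1, 7 regions from 88218096 to 88260337 ran from the end shared by the Ugt1a genes, which encode glucuronosyltransferases, into Mroh2a and Hjurp, a chaperone gene of the centromeric histone. The 9 overlapped Ugt1a genes share the same 2 regions, at 13.5 and 8.17, so these count once.

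Arrays at or between gene models known only by number were frequent on chromosome 8. A neighbourhood of 4 arrays from 20030617 to 20709986 held 53 regions at a median log-LR of 5.75, mostly between genes. Among its genes were Gm20778 with 4 regions up to 10.6, 2610005L07Rik with 1 at 9.23, Gm15319 with 2 up to 6.76, and Gm21119 with 2 up to 6.40. Another pair, from 55113787 to 55383067, held 25 regions at a median of 6.74. Gm51572 there held 4, up to 10.6, and Gm51571 held 2, up to 8.80, while 6 further models (Gm46063, Gm51573, Gm51594, Gm51593, Gm51591 and Gm51590) reached 6.65 to 7.77. With the 5S cluster these arrays put 142 of the 509 regions of chromosome 8 in arrays (27.9%).

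Some arrays lay over genes that belong to none of these tandem families. Midn, the midnolin gene, had 4 of the 7 regions of an array on chromosome 10 from 80138664 to 80168021, up to a log-LR of 13.1. Its neighbours Atp5d, an ATP synthase subunit gene, and Cbarp shared a region at 6.19, the maximum of both. Cirbp, the cold-inducible RNA-binding protein gene, had a maximum of 3.83. Zbtb7a had 4 of 5 regions between 81134431 and 81138410, from 3.96 to 8.91. Values over these genes lay in the same range as those of most repeated families.

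The sex chromosomes held dense arrays at the region they share. Near the end of X, 3 arrays with 52 regions lay between 169984862 and 170862813. The first covered Mid1, a ubiquitin ligase gene that spans the pseudoautosomal boundary in this strain, with 4 regions up to 11.7, and Erdr1 with 5 up to 7.93. The other two, of 9 and 25 regions, overlapped no gene. In the array of 9, 1 region at 170758287 to 170758459 had a log-LR of 102.9 and the other 8 lay between 3.93 and 6.70. The Y array, 29 regions from 90731029 to 90818415, had a median of 6.25 and a range of 3.49 to 9.28, and overlapped the Mid1 pseudogene Mid1-ps1 (4 regions, up to 8.42) and the lncRNA Gm33272 (8 regions, up to 9.02). Medians of these X arrays, 6.17, 5.86 and 5.88, were close to that of Y. Arrays held 60 of 307 regions on X (19.5%) and 29 of 74 on Y (39.2%).

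The genes overlapped by array regions are set beside those of the rest of the list as a description. At least 1 base of a gene was overlapped by 244 of 578 array regions (42.2%, 95% Wilson interval 38.3 to 46.3), against 60.9% of regions outside (59.8 to 62.0). These intervals treat regions as independent, which neighbours in an array are not. Protein-coding genes were overlapped by 26.8% against 55.0%, pseudogenes by 7.79% against 1.41%, and lncRNA genes by 5.88% against 7.42%. Genes that RefSeq classes as rRNA, which does not cover every gene of the ribosomal RNA families counted separately, were overlapped by 15 array regions and by 0 of 7643 outside. In 16 of the 47 chromosome arrays no gene was overlapped. Altogether 108 genes were overlapped, 60 of them protein-coding, and 11 by 5 or more regions.

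Array regions overlapped 108 of 49980 genes (0.216%), so a small family would be expected to show 0 at that share. Among the gene families listed for counting, 5S ribosomal RNA had 13 of 71 genes overlapped in arrays, tRNA 1 of 405, histones 3 of 78 and pseudoautosomal genes 2 of 3. Vomeronasal and olfactory receptors had 3 of 2073, all pseudogenes. No array region on a chromosome overlapped 45S ribosomal RNA (0 of 2), 7SL and 7SK (0 of 3), spliceosomal RNA (0 of 23) or microRNA (0 of 1182). The same held for Y-linked multicopy genes (0 of 15), the Sp100 family (0 of 4) and Speer genes (0 of 15). It also held for protocadherins (0 of 70) and major urinary proteins (0 of 46). Regions on contigs were not compared with genes, so these counts leave them out. Some of these are repeated families too. Regions outside arrays overlapped 20 of 70 protocadherin genes, 17 of 1182 microRNA genes, 3 of 3 7SL and 7SK genes and 1 of 2 45S genes. Their share over all genes of the table was 8.35%, so the microRNA count lies below it and the protocadherin count above it.

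Arrays were spread unevenly along the genome. Chromosomes 3, 12 and 19 held none, although 964 regions of the list lay there. Chromosome 8 had 7 arrays and chromosome 4 had 8. Within 500 kb of base 3000000, where autosomes and X begin in the assembly, lay 140 regions, of which 62.9% were in the 5 arrays on chromosomes 9, 10, 11, 16 and 18. That of chromosome 10, 9 regions from 3109950 to 3116775 beside Gm3318, had a median log-LR of 13.1. Medians were 10.3 for the Sfi1 array on chromosome 11, 6.77 on chromosome 16 and 6.55 on chromosome 18. A lone region on chromosome 12, at 3109899 to 3110083 and outside the rule, had a log-LR of 184.0. Values at chromosome starts were therefore mixed, and a link between place and log-LR was not tested.

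The remaining gene-free arrays had modest values. They lay on chromosome 2 (22001867 to 22004791), chromosome 10 (27818658 to 27824665), chromosome 15 (91906664 to 91910341), chromosome 18 (82161574 to 82170548) and X (94886042 to 94917677), with medians of 5.07, 4.16, 8.04, 4.32 and 7.25. That of chromosome 15 was the most filled of all, with 77.7% of its span covered. Both further arrays on chromosome 7 lay around the vomeronasal receptor genes Vmn1r243 and Vmn1r149 without overlapping them, at medians of 4.40 and 4.38.

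The list in the other direction holds 1 region, more enriched in fed mice, at chromosome 3, 58665865 to 58666096, with a log-LR of 27.1. It lies on a chromosome without arrays, and 99 members and 64 regions outside had a log-LR at least as high.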

How the data were processed

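H3K9 beta-hydroxybutyrylation was measured by ChIP-seq, with input, in 16 cortex libraries. The submitters' processing notes name Bowtie2, MACS2 and mm10 with no roles or versions. The authors deposited 2 lists of regions, one per direction, and a score for each region, a log likelihood ratio (log-LR) per the file headers. Not given in the sources used here were its log base, cutoff and depth scaling, any pooling, and the depth of each library.

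Deposited starts were taken to count from 0, which makes 120 bp the smallest width, and are printed from 1. Runs of at least 5 regions with gaps of at most 20 kb were formed with pandas 2.3.3 under Python 3.11.15, and the run finder was tested on simulated data. Regions were joined to RefSeq gene extents and promoter windows of GRCm38.p6 by an overlap of at least 1 base. The gene table has no strand or exons, and promoter windows on chromosome 18 were not used. Copies were aligned with Biopython 1.88. Wilson intervals (95%, scipy 1.17.1) cover counting error only.

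No test between conditions was made. The members and lists were chosen with earlier results of these data known. Named genes were the nearest genes of the 10 highest members, up to 4 genes for each array of 10 or more regions and each contig of 5 or more, and members of the gene lists. Other arrays and genes named, the array classes, the promoter families and the contig split were chosen after their values were seen. Alternatives changed the gap, the run length, merging, a log-LR limit and the places included.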

Additional observations from a re-analysis of the deposited data

How the results depend on the processing

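Of 46 values under alternatives, 25 stayed within the limits set around the reported ones (761 members, 51 arrays, median log-LR 6.80, 42.2% overlapping a gene, 88% of the 100 highest regions) and 21 moved. Gaps up to 50 kb gave a median of 6.23 and 48.9% in genes. Runs of 3 gave 1319 members, 232 arrays, a median of 5.64 and 49.3% in genes, and runs of 10 gave 17 arrays and a median of 7.12. Merging regions within 1 kb left 350 members and 31 arrays, a median of 6.49, 51.3% in genes and 22% of the 100 highest. A log-LR of at least 5 left 488 members, 28 arrays and a median of 8.79. Chromosomes alone gave a median of 6.24 and 42% of the 100 highest. Leaving out the array and the contig with most regions gave 6.55 and 49%. Without the chromosome 9 and chromosome 14 arrays, chosen after seeing the data, the share was 55%. Each setting changes by construction which regions are counted, and no other cause was tested. All 88 members among the 100 highest lay in the chromosome 9 array (36), the chromosome 14 array (6) or on 1 contig (46). No setting left out all of these together. Among the 200 highest regions, the chromosome 9 array held 36, the chromosome 14 array 6 and that contig 59. Of the others, 5 lay on other contigs, 10 in other arrays and 84 outside arrays and contigs. Regions outside therefore made up most of what remained without these places. No paired analysis was possible because each region has 1 value and not 1 for each library, and leaving out replicates was not run for the same reason. Depth is unknown, so it cannot be said which regions it limits.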
